A study of Rattus norvegicus with 6 samples.

Results

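The genes described here encode cytokines, chemokines and their receptors. They are all features of the deposited table whose symbol begins with Il, Cxcl, Cxcr, Ccl, Ccr or Csf followed by a number, or with Tnfsf, Tnfrsf or Ifn. This rule found 99 of the 19289 listed features, and 57 of the 99 were detected, with a value above 0, in all 6 libraries. Polyadenylated RNA was sequenced from INS-1E cells, a clonal rat insulinoma line that makes and secretes insulin. In 3 libraries the cells had been kept with uric acid, a product of purine breakdown, for 24 hours, and 3 libraries came from untreated cells. The labels give neither the concentration of uric acid nor a vehicle, and they do not say whether the replicates were separate cultures, and all p-values below therefore reflect only how far these libraries scatter, which may be technical.

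The libraries held 48875962, 41191819 and 44849489 estimated counts with uric acid, against 59092982, 52407439 and 47858248 in untreated cells, where a full read pair adds up to 4 counts. The 99 genes took 0.117 to 0.121% of these counts with uric acid and 0.114 to 0.120% in untreated cells. The beta-cell label was checked on 12 markers chosen for this purpose, of which 11 were in the table, all with a mean of at least 1 FPKM (fragments per unit of transcript length and of library size). Their summed level was 67143 to 79743 FPKM with uric acid and 68394 to 82432 FPKM in untreated libraries. Of the 11 markers 2 differed in edgeR and are named after their values were seen: Mafa, a beta-cell transcription factor, was lower with uric acid (log2 fold change -0.46, adjusted p = 0.0129), and Ucn3, a peptide of mature beta cells, was higher (0.50, adjusted p = 0.0296). Of 18 leukocyte and macrophage markers 13 were in the table, none at 0 in every library; 8 averaged under 0.1 FPKM (among them Aif1, Cd163, Cd3e, Cd14, Itgam, Tyrobp and Adgre1), and only Cd4 reached 1 FPKM. The leukocyte markers summed to 2.47 to 4.65 FPKM with uric acid and to 2.44 to 4.11 FPKM in untreated cells, and their part in the results below was not tested.

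Cytokines and chemokines are secreted signals. Interleukins and interferons bind receptors made of several chains, many of which signal through JAK kinases and STAT transcription factors, whereas members of the IL-1 and TNF receptor families recruit adaptors that activate NF-kappaB. In pancreatic islets, interleukin 1 beta, interferon gamma and TNF from immune cells act on receptors of the beta cell, which can then make chemokines such as CXCL10 and, after long exposure, lose insulin secretion and die. INS-1E is a line of 1 cell type and not an islet, so the immune cells that make many of these signals in the pancreas are not part of the culture.

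Receptors were the most abundant part of the family, and most secreted signals were scarce. By mean over the 6 libraries, 11 of the 99 genes had at least 10 FPKM, 27 had 1 to 10 FPKM, 27 had 0.1 to 1 FPKM and 34 were under 0.1 FPKM. The 11 most abundant were the receptor genes Il3ra, Il1r1, Tnfrsf1a, Il6st, Il17ra, Tnfrsf12a, Tnfrsf21, Ifngr1 and Ifngr2 and the chemokines Cxcl16 and Cxcl11. Of the family 57.6% was detected in all 6 libraries, beside 78.1% of all features, and 38.4% had a mean of at least 1 FPKM, beside 64.6% of all features. With at least 10 counts asked of each library, 55 of the 99 were detected. The 39 interleukin, interferon and colony-stimulating factor receptors summed to 257, 253 and 248 FPKM in uric acid libraries 1, 2 and 3, against 255, 249.7 and 242 FPKM in untreated libraries 1, 2 and 3. The 17 cytokine ligands summed to only 15.3, 18.5 and 13.8 FPKM with uric acid, against 11.7, 11.4 and 14.0 FPKM in untreated cells.

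**Figure D1:**
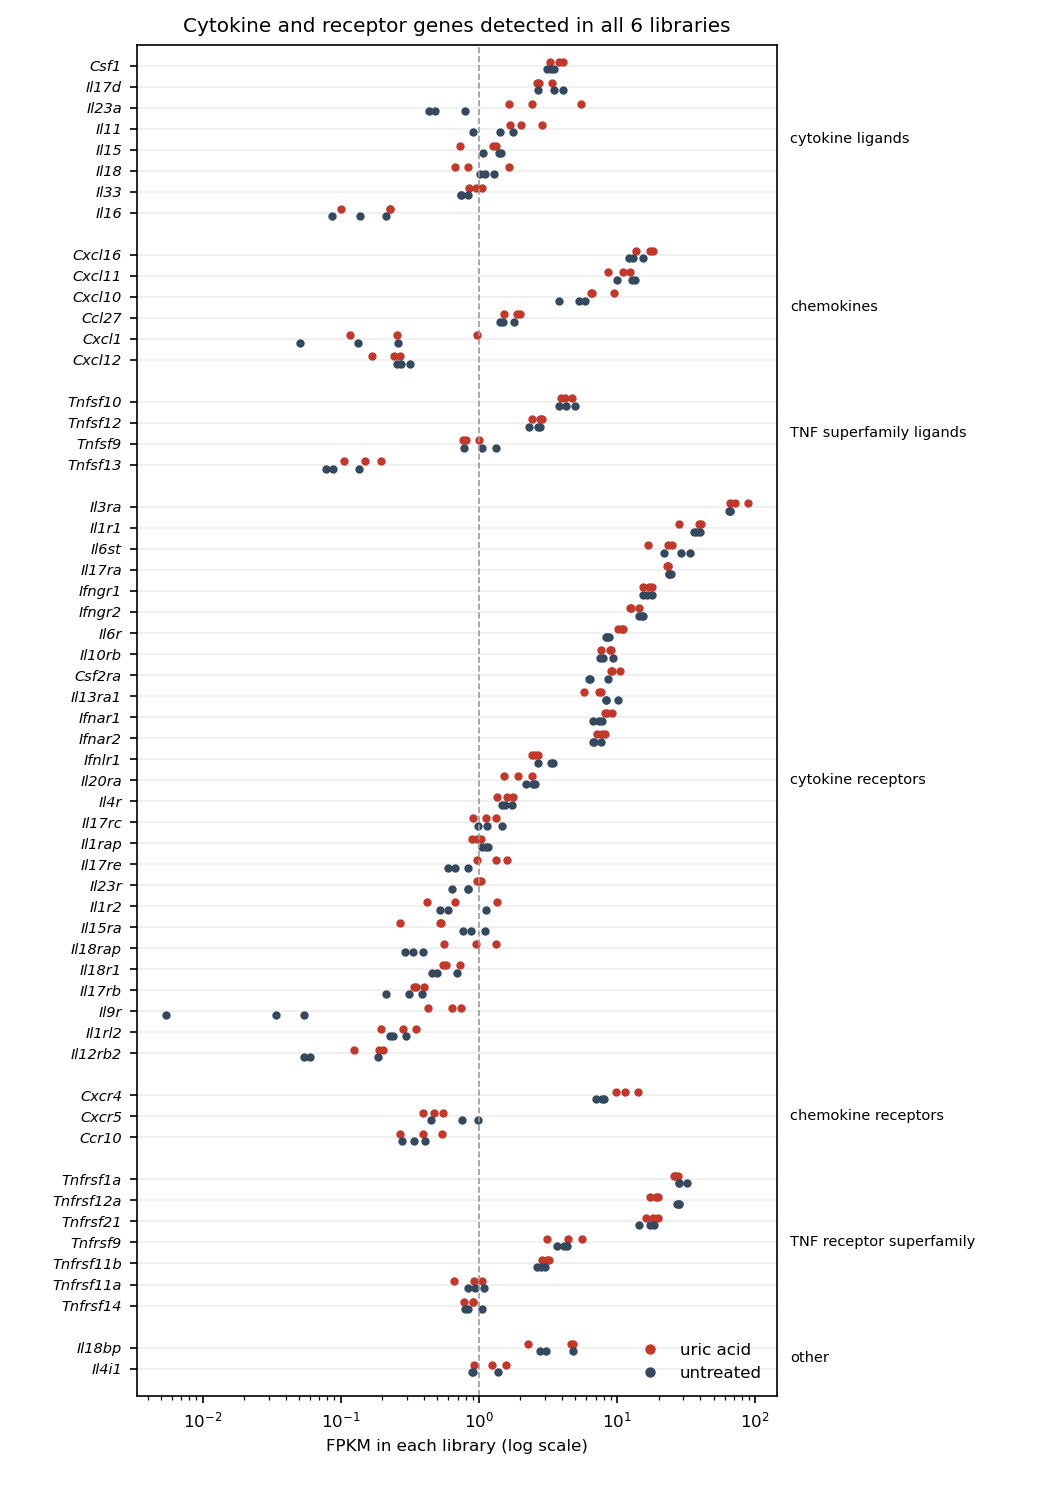
Level of each of the 57 cytokine, chemokine and receptor genes detected in all 6 libraries, as FPKM on a log scale (horizontal axis), ordered by role and by mean; each point is 1 library, red for uric acid and dark blue for untreated, and the dashed line marks 1 FPKM. Il3ra stands highest at 64.5 to 88.5 FPKM, and the 3 untreated points of Il9r, at 0.00540 to 0.0543 FPKM, lie left of all its uric acid points.

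Among the 38 genes with a mean of at least 1 FPKM, 3 rose with uric acid (Il23a, Cxcr4 and Il6r) and 1 fell (Tnfrsf12a) at an adjusted p under 0.05 in edgeR's quasi-likelihood test, adjusted by the Benjamini-Hochberg method over all 12460 features tested. These 4 are 10.5% of the 38, beside 7.98% of all tested features, of which 4.99% rose and 2.99% fell. Il23a entered the 38 only through its uric acid libraries, with means of 3.18 FPKM there and 0.568 FPKM in untreated cells. At an unadjusted p under 0.05 there were 12 of the 38. The share of all tested features at that level was not computed, so this count cannot be read as an excess. The median log2 fold change, uric acid over untreated, was 0.05 over the 38 genes (range -0.57 to 2.46, with 21 positive and 17 negative) and 0.00 over all tested features. The other 61 genes, 19 of which were detected in all 6 libraries, were too low for that fit: the lowest gene inside it was Il17re, at 0.971 to 1.61 FPKM with uric acid and 0.598 to 0.838 FPKM in untreated cells, and the highest outside it was Tnfsf9, at 0.953 FPKM over all libraries. In the fit of all 19289 features with no filter, Il9r and Il18rap rose as well, while Il6r missed the threshold (adjusted p = 0.0505). That made 5 of 99 genes, or 5.05%, beside 3.81% of all features (2.42% higher and 1.39% lower). DESeq2 called the same 4 of the 38 and also Il17re, and gave 1 of the 38 no adjusted p.

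Counting genes whose values in the groups did not overlap gave 19 of the 57 detected genes, or 33.3%, beside 28.4% of all detected features. Among these 19, 11 were higher with uric acid (Cxcr4, Il6r, Csf2ra, Ifnar1, Cxcl10, Il23a, Il17re, Il23r, Il33, Il18rap and Il9r), beside 15.6% of all detected features, and 8 were lower (Tnfrsf1a, Il17ra, Tnfrsf12a, Ifngr2, Il13ra1, Ifnlr1, Il1rap and Il15ra), beside 12.8%. Single libraries weighed on the calls. Of the 4 calls among the 38 genes, 0 were left when untreated library 2 was omitted, 1 when untreated library 3 was omitted, and 2 when untreated library 1 or uric acid library 1 was omitted. Without uric acid library 3 there were 5, Il17re being added. Uric acid library 2 gave the highest value of 19 of the 57 detected genes and the lowest of 12.

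**Figure D2:**
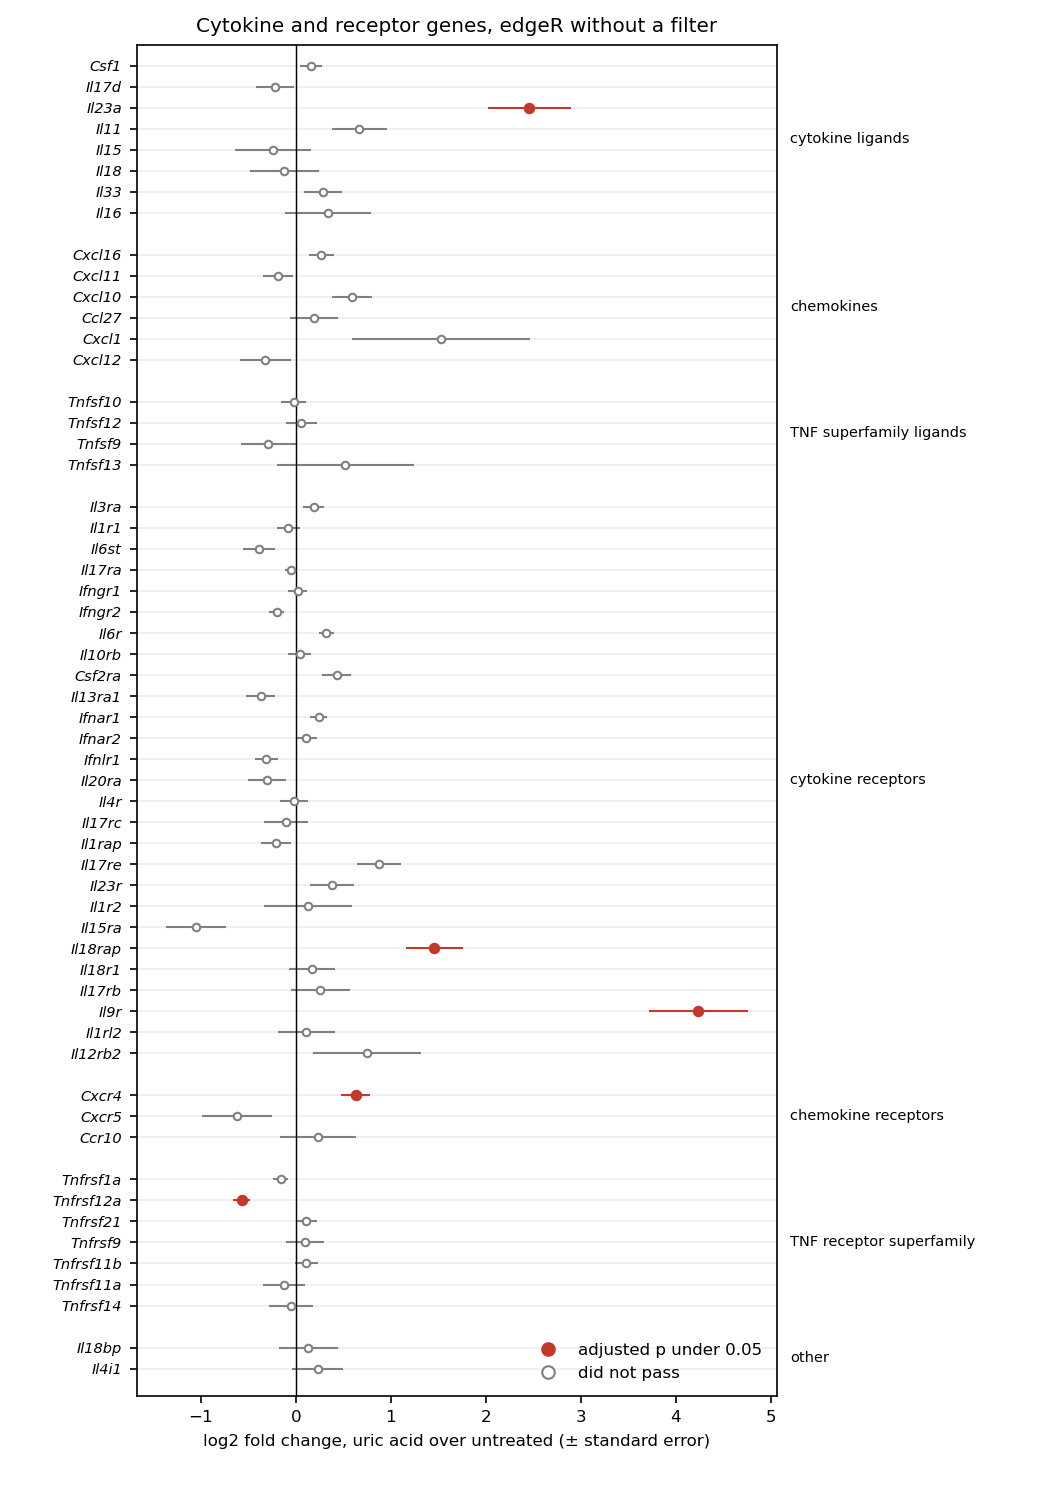
Log2 fold change, uric acid over untreated, with its standard error (horizontal axis, bars), of the 57 genes detected in all 6 libraries, from the edgeR fit with no filter on low values; filled red points passed an adjusted p of 0.05 over all 19289 features and open points did not. Il9r (4.24), Il23a (2.46), Il18rap (1.46) and Cxcr4 lie to the right of 0 and Tnfrsf12a (-0.57) to the left.

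RefSeq promoter windows on the GRCr8 build, from 250 bases before to 50 bases after the annotated start, were available for 78 of the 99 genes. Which build the deposited table uses is not given in the sources, so its coordinates are not set beside these. The 250 bases before the start are printed for Il23a and Il9r, which had the largest increases past the threshold, for Tnfrsf12a, which fell, and for Cxcl10, whose window holds 3 of the motifs searched. Letters are in lower case, read 5′ to 3′ on the gene's strand, with motif matches in capitals.
Il23a, chr7:1308435-1308684, strand -: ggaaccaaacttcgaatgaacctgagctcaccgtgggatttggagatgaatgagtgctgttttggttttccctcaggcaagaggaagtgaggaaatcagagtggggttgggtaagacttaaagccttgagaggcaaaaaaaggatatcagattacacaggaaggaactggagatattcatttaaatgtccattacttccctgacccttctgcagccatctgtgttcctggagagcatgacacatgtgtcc
Il9r, chr10:15935906-15936155, strand +: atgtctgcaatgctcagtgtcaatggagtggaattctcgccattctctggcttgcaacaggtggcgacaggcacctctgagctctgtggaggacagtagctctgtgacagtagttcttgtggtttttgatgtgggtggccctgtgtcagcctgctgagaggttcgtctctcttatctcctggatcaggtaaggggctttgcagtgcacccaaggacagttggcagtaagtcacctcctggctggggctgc
Tnfrsf12a, chr10:13213649-13213898, strand -: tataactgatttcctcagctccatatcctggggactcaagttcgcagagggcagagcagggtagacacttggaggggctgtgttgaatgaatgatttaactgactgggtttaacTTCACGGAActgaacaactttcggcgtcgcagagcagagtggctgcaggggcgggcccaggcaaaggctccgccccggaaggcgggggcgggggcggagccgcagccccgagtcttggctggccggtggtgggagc
Cxcl10, chr14:15988816-15989065, strand +: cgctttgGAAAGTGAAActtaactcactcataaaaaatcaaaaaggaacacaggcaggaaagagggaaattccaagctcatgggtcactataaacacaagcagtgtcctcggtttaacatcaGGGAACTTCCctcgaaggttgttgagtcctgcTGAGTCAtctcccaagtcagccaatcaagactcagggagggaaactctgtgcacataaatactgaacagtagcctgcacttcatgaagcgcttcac
Motifs were searched on both strands over the whole window: the ATF4 element TGATGNAA, the AP-1 site TGANTCA, the STAT site TTCNNNGAA, the interferon element (GAAA, any 2 bases, then GAAA) and the NF-kappaB site GGGRNYYYCC. In these patterns R is A or G, Y is C or T and N is any base. In Tnfrsf12a the STAT letters TTCACGGAA begin 136 bases before the start. In Cxcl10 the interferon element GAAAGTGAAA begins 243 bases, the NF-kappaB letters GGGAACTTCC 128 bases and the AP-1 letters TGAGTCA 96 bases before the start. The Cxcl10 letters gggaaattcc hold an A where the NF-kappaB pattern asks for C or T, so they were not counted. Looser patterns were not searched. None of the 5 motifs was found in the Il23a or Il9r windows. Over the 78 genes the NF-kappaB site was found in 12 (15.4%), beside 5.02% of 33469 RefSeq promoters, the STAT site in 12 (15.4%), beside 8.87%, the interferon element in 11 (14.1%), beside 3.92%, the AP-1 site in 10 (12.8%), beside 7.33%, and the ATF4 element in 2 (Il6st and Ccl27), beside 3.98%. A gene was counted if any of its windows matched, and 4 genes had several, whereas the background is a share of single windows. A match of letters is a description and not a bound site.

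Among the cytokine ligands Il23a rose and no other passed the threshold. Il23a encodes the p19 subunit of interleukin 23, a cytokine that sustains T cells making interleukin 17. Its level was 2.44, 5.47 and 1.65 FPKM in uric acid libraries 1, 2 and 3, against 0.788, 0.480 and 0.434 FPKM in untreated libraries 1, 2 and 3. Every uric acid library was above every untreated one, and uric acid library 2 was the highest by far. The means were 3.18 ± 2.02 FPKM with uric acid and 0.568 ± 0.193 FPKM in untreated cells (SD, n = 3 each), a 5.61-fold difference, and the log2 fold change was 2.46 ± 0.45 (standard error; adjusted p = 0.0139). It was 1.82 without uric acid library 2 (adjusted p = 0.0102), and 1.32 in limma on log2(FPKM + 1), a scale that understates the change of low genes (adjusted p = 0.0421). The adjusted p rose to 0.0779 without untreated library 2 and to 0.0552 without untreated library 3. In edgeR with no filter the adjusted p was 0.0180, and the call was lost when untreated library 1, 2 or 3 was left out. In bulk RNA a change in how many cells carry a transcript cannot be told apart from a change in its amount per cell. The deposited table places Il23a at chromosome 7, positions 2710609 to 2712723, on the minus strand, and its neighbours there, Stat2 and Pan2, had log2 fold changes of 0.11 and 0.15 (adjusted p = 0.485 and 0.448, no filter). Il12b, whose p40 product pairs with p19 in interleukin 23, was not among the genes that the symbol rule found, so it has no value here.

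The other cytokine ligands were low. Csf1, the macrophage growth factor, was the most abundant, with 4.04, 3.78 and 3.29 FPKM with uric acid and 3.31, 3.13 and 3.47 FPKM in untreated cells. Il17d, a member of the interleukin 17 family, had 3.40, 2.73 and 2.64 FPKM with uric acid and 3.50, 2.66 and 4.04 FPKM in untreated cells. The groups overlapped for both, with log2 fold changes of 0.16 ± 0.12 (adjusted p = 0.417) for Csf1 and -0.22 ± 0.21 (adjusted p = 0.545) for Il17d. Il11, a cytokine that signals through gp130, had 1.69, 2.88 and 2.03 FPKM with uric acid and 0.904, 1.42 and 1.78 FPKM in untreated cells, with a log2 fold change of 0.68 ± 0.30 (adjusted p = 0.186). Its unadjusted p was the only other one under 0.05 in this role. Il15, a growth factor of T and NK cells, and Il18, a cytokine matured by inflammasomes, were near 1 FPKM in both groups and did not pass (adjusted p = 0.695 and 0.877), and Il18 overlaps Bco2 and Tex12 on the other strand. Il33, an alarmin of the IL-1 family, had 0.960, 0.841 and 1.06 FPKM with uric acid and 0.748, 0.746 and 0.836 FPKM in untreated cells. These groups did not overlap, but the difference did not pass (adjusted p = 0.480, no filter). Il16 averaged 0.165 FPKM, and 9 ligands (Il7, Il12a, Ifna4, Il19, Il20, Il6, Ifnl3, Il25 and Ifne) were absent from at least 1 library, with means of 0.00463 to 0.216 FPKM. Il6, the classical inflammatory interleukin, had a value in untreated library 3 alone (0.0990 FPKM).

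Chemokine transcripts were carried by Cxcl16, Cxcl11 and Cxcl10, and none of the 4 chemokines tested passed the threshold in edgeR or DESeq2; 1, Cxcl10, had an unadjusted p under 0.05 in edgeR. Cxcl16, a membrane-bound chemokine and scavenger receptor, had 17.3, 18.2 and 13.8 FPKM with uric acid, against 12.3, 13.0 and 15.5 FPKM in untreated cells. The ranges overlapped, and the log2 fold change was 0.27 ± 0.13 (adjusted p = 0.231). Cxcl11 and Cxcl10 are neighbouring interferon-induced chemokines that attract T cells through the receptor CXCR3. Cxcl10 had 9.55, 6.44 and 6.57 FPKM with uric acid, against 3.77, 5.31 and 5.82 FPKM in untreated cells. Cxcl11 averaged 10.7 ± 1.96 FPKM with uric acid and 12.1 ± 1.85 FPKM in untreated cells (SD, n = 3 each). The groups did not overlap for Cxcl10 but did for Cxcl11. The log2 fold changes were 0.60 ± 0.21 for Cxcl10 (adjusted p = 0.122) and -0.19 ± 0.16 for Cxcl11 (adjusted p = 0.508). Art3, which overlaps both on the other strand, averaged 0.0419 FPKM. Zmynd15, which overlaps Cxcl16 on the other strand, averaged 1.07 FPKM.

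Ccl27, a skin-homing chemokine, averaged 1.80 ± 0.257 FPKM with uric acid and 1.57 ± 0.199 FPKM in untreated cells (SD, n = 3 each). Its end overlaps that of Il11ra1 on the other strand by a few bases. Cxcl12, the ligand of CXCR4, had 0.268, 0.168 and 0.242 FPKM with uric acid, against 0.319, 0.271 and 0.257 FPKM in untreated cells. Cxcl1, a neutrophil-attracting chemokine, had 0.965, 0.257 and 0.116 FPKM with uric acid, against 0.133, 0.0504 and 0.260 FPKM in untreated cells. The highest Cxcl1 value came from uric acid library 1, the other libraries overlapped, and the log2 fold change of 1.53 ± 0.94 did not pass (adjusted p = 0.424, no filter). The remaining 9 chemokines (Ccl17, Ccl20, Ccl2, Ccl7, Cxcl13, Ccl19, Cxcl17, Cxcl3 and Cxcl2) were each absent from at least 1 library and averaged 0.00941 to 0.289 FPKM.

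No TNF superfamily ligand passed the threshold, of 2 tested. Tnfsf10, which encodes the death ligand TRAIL, had 4.21, 3.96 and 4.74 FPKM with uric acid and 4.27, 3.81 and 4.94 FPKM in untreated cells. Tnfsf12, which encodes TWEAK, the ligand of the receptor made from Tnfrsf12a, had 2.79, 2.84 and 2.44 FPKM with uric acid and 2.29, 2.76 and 2.68 FPKM in untreated cells. Both overlapped between the groups, with log2 fold changes of -0.01 ± 0.13 for Tnfsf10 (adjusted p = 0.960) and 0.06 ± 0.17 for Tnfsf12 (adjusted p = 0.854). Neither had an unadjusted p under 0.05 in edgeR, and DESeq2 called neither. Tnfsf9, the ligand of the costimulatory receptor 4-1BB, averaged 0.856 ± 0.126 FPKM with uric acid and 1.05 ± 0.274 FPKM in untreated cells (SD, n = 3 each). Tnfsf13, which encodes APRIL, was the lowest gene detected in all 6 libraries, at a mean of 0.126 FPKM. Tnfsf13b, Tnfsf15 and Tnfsf18 were absent from at least 1 library.

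Among the 39 interleukin, interferon and colony-stimulating factor receptors, 27 were detected in all 6 libraries and 18 were tested with the filter. Among the 27, the largest difference was that of Il9r, which encodes the ligand-binding chain of the interleukin 9 receptor. Il9r had 0.643, 0.747 and 0.427 FPKM in uric acid libraries 1, 2 and 3, against 0.00540, 0.0341 and 0.0543 FPKM in untreated libraries 1, 2 and 3. All uric acid libraries stood well above all untreated ones, but the level stayed under 1 FPKM throughout. The estimated counts behind these values were 235, 231 and 146 with uric acid and 3, 14 and 20 in untreated cells. At 4 counts a pair, these sum to 153 read pairs with uric acid and 9.25 in untreated cells. The means of 0.606 ± 0.163 FPKM with uric acid and 0.0313 ± 0.0246 FPKM in untreated cells (SD, n = 3 each) differed 19.4-fold. The log2 fold change was 4.24 ± 0.52 (adjusted p = 0.00310, no filter). It passed with each library left out in turn, with values of 3.71 to 4.44 when untreated library 3 was kept and 4.86 without that library. In limma on log2(FPKM + 0.1) it was 2.42 (adjusted p = 0.0134). The table places Il9r at chromosome 10, positions 15696824 to 15710423, on the plus strand. No listed feature overlaps it, and the nearest neighbour, Snrnp25, 7498 bases away, had a log2 fold change of 0.03 (adjusted p = 0.949, no filter). Il2rg, the common gamma chain with which the interleukin 9 receptor signals, had a value in uric acid library 3 alone (0.0227 FPKM).

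Il18rap, the accessory chain that makes the interleukin 18 receptor able to signal, rose too. The table places Il18rap at chromosome 9, positions 47225585 to 47258503, on the plus strand. Its level was 0.951, 1.33 and 0.555 FPKM with uric acid, against 0.334, 0.394 and 0.293 FPKM in untreated cells. The groups did not overlap, and uric acid library 3 was the closest to the untreated values. Means of 0.946 ± 0.388 FPKM with uric acid and 0.340 ± 0.0506 FPKM in untreated cells (SD, n = 3 each) gave a 2.78-fold difference, and the log2 fold change was 1.46 ± 0.30 (adjusted p = 0.0304, no filter). The call did not hold without uric acid library 1 (adjusted p = 0.101) or 2 (0.0561), without untreated library 1 (0.121), 2 (0.0974) or 3 (0.0922), or in limma on log2(FPKM + 0.1) (0.124). Il18r1, the ligand-binding chain encoded next to it 6409 bases away, averaged 0.621 ± 0.0976 FPKM with uric acid and 0.547 ± 0.126 FPKM in untreated cells (SD, n = 3 each), with a log2 fold change of 0.17 ± 0.24 (adjusted p = 0.719, no filter).

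**Figure D3:**
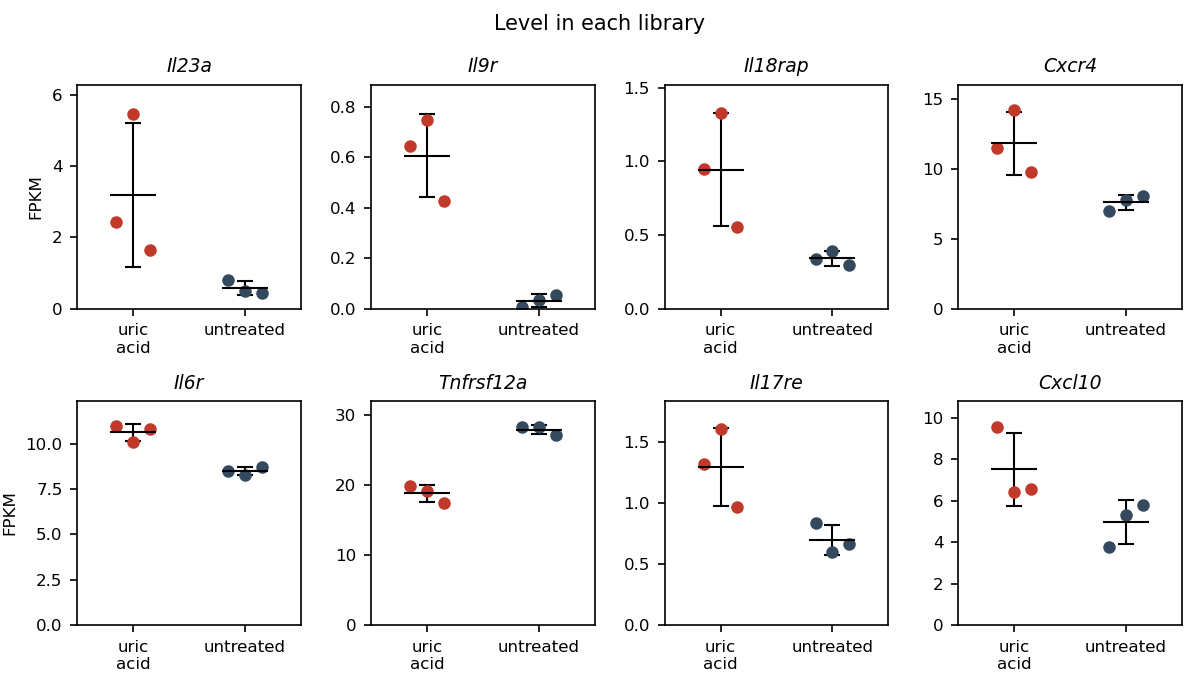
FPKM in each library (vertical axes, each starting at 0) of 8 genes of the family, with uric acid on the left in red and untreated on the right in dark blue; points are libraries 1 to 3 from left to right, the horizontal line is the mean and the bars are 1 SD. The 8 were picked for their differences, so the lack of overlap between their groups is no test. Among the 8, Tnfrsf12a alone is lower with uric acid, and Il23a and Il18rap have the widest spread with uric acid relative to their means. Of all 57 detected genes, 11 were higher without overlap and 8 lower, beside 15.6% and 12.8% of all detected features.

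Il6r, the ligand-binding chain of the interleukin 6 receptor, rose slightly. The table places it at chromosome 2, positions 189205701 to 189254628, on the minus strand. Il6r had 11.0, 10.1 and 10.8 FPKM with uric acid, against 8.50, 8.28 and 8.70 FPKM in untreated cells. Replicates were close and the groups did not overlap, with means of 10.6 ± 0.494 FPKM with uric acid and 8.50 ± 0.210 FPKM in untreated cells (SD, n = 3 each), a 1.25-fold difference and a log2 fold change of 0.32 ± 0.07 (adjusted p = 0.0306). Of its neighbours in the table Atp8b2, 31324 bases away, was lower with uric acid (log2 fold change -0.75 ± 0.13, adjusted p = 0.0168, no filter), and Ube2q1, 90592 bases away, had 0.11 (adjusted p = 0.384, no filter). The adjusted p was 0.118 with uric acid library 1 left out, 0.0927, 0.158 and 0.0637 with untreated library 1, 2 and 3 left out in turn, and above the threshold in limma on log2(FPKM + 1) (0.0543). Il6st encodes gp130, the signalling chain shared by the interleukin 6 family. It had 23.2, 16.8 and 25.1 FPKM with uric acid, against 33.8, 29.2 and 21.9 FPKM in untreated cells. Untreated library 3 lay among the uric acid values, and the log2 fold change of -0.38 ± 0.17 did not pass (adjusted p = 0.200). The difference between the 2 chains was not tested.

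The most abundant receptor gene was Il3ra, which encodes the ligand-binding chain of the interleukin 3 receptor. It had 71.0, 88.5 and 65.6 FPKM with uric acid, against 64.5, 66.1 and 66.0 FPKM in untreated cells. Uric acid library 2 was the high value, uric acid library 3 lay inside the untreated range, and the log2 fold change was 0.19 ± 0.11 (adjusted p = 0.286). Il3ra overlaps Asmtl, at a mean of 38.5 FPKM, on the other strand, and without a stated strand of counting the reads of the 2 genes may be mixed. Csf2ra, the corresponding chain of the GM-CSF receptor, had 9.02, 10.5 and 9.21 FPKM with uric acid, against 6.23, 6.37 and 8.55 FPKM in untreated cells. The Csf2ra groups did not overlap, and the log2 fold change was 0.44 ± 0.16 (adjusted p = 0.118). Csf2rb, the beta chain that both receptors share for signalling, was not among the genes that the symbol rule found, so it has no value here.

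The tested chains of the interleukin 1 and interferon receptors did not pass the threshold in edgeR or DESeq2; Ifngr2, Ifnar1 and Ifnlr1 had an unadjusted p under 0.05 in edgeR. Il1r1, the signalling receptor of interleukin 1, had 38.9, 28.1 and 40.5 FPKM with uric acid, against 39.7, 37.6 and 36.0 FPKM in untreated cells. The groups overlapped around a low uric acid library 2, with a log2 fold change of -0.08 ± 0.12 (adjusted p = 0.730). Its coreceptor Il1rap averaged 0.964 ± 0.0658 FPKM with uric acid and 1.11 ± 0.0555 FPKM in untreated cells (SD, n = 3 each; adjusted p = 0.474 in edgeR), and the decoy receptor Il1r2 stood at 0.418 to 1.36 FPKM with uric acid and 0.527 to 1.12 FPKM in untreated cells. For interferon gamma, the binding chain Ifngr1 had a log2 fold change of 0.02 ± 0.09 (adjusted p = 0.909) and the second chain Ifngr2 one of -0.19 ± 0.08 (adjusted p = 0.175). Ifngr2 had 14.3, 12.4 and 12.6 FPKM with uric acid, against 15.4, 14.4 and 15.1 FPKM in untreated cells, just apart. The chains of the type I interferon receptor, Ifnar1 and Ifnar2, had log2 fold changes of 0.24 ± 0.09 (adjusted p = 0.120) and 0.12 ± 0.11 (adjusted p = 0.549). Ifnlr1, the interferon lambda receptor, had -0.30 ± 0.13 (adjusted p = 0.173), and Il10rb, a chain shared by the receptors of interleukin 10, interleukin 22 and interferon lambda, had 0.05 ± 0.12 (adjusted p = 0.847).

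Receptors of the interleukin 17 family did not pass the threshold in edgeR. Il17ra, the chain they share, had 23.0 to 23.5 FPKM with uric acid and 23.7 to 24.7 FPKM in untreated cells, a log2 fold change of -0.05 ± 0.06 (adjusted p = 0.661). Il17re, the receptor chain for interleukin 17C, had 1.32, 1.61 and 0.971 FPKM with uric acid, against 0.838, 0.598 and 0.669 FPKM in untreated cells. The Il17re groups did not overlap, and its log2 fold change of 0.89 ± 0.24 stood at the threshold (adjusted p = 0.0545). Il17rc and Il17rb, at means of 1.16 and 0.333 FPKM, had log2 fold changes of -0.10 ± 0.23 (adjusted p = 0.833) and 0.26 ± 0.31 (adjusted p = 0.671, no filter), and Il17rd was absent from uric acid library 2 and untreated library 3. Il23r, the specific receptor chain of interleukin 23, had 0.966, 1.01 and 1.04 FPKM with uric acid, against 0.840, 0.638 and 0.838 FPKM in untreated cells. These values did not overlap, but the log2 fold change of 0.38 ± 0.23 did not pass (adjusted p = 0.416, no filter). Il12rb1, the chain that completes the interleukin 23 receptor, had a value in uric acid library 3 alone (0.0738 FPKM).

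Of the remaining receptors, Il13ra1, a chain of the receptor for interleukins 4 and 13, had 7.59, 5.75 and 7.43 FPKM with uric acid, against 10.2, 8.32 and 8.29 FPKM in untreated cells, without overlap (log2 fold change -0.37 ± 0.15, adjusted p = 0.163). Il4r, its partner chain, had -0.01 ± 0.16 (adjusted p = 0.971). Il15ra, the chain that presents interleukin 15, had 0.529, 0.267 and 0.527 FPKM with uric acid, against 0.878, 0.763 and 1.11 FPKM in untreated cells. Its groups were apart, and its log2 fold change of -1.05 ± 0.32, the lowest value among the 57 detected genes, did not pass (adjusted p = 0.109, no filter). Il20ra, Il1rl2 and Il12rb2 overlapped between the groups. The 12 receptors absent from at least 1 library (Il2rb, Il17rd, Il1rl1, Il11ra1, Csf1r, Il1rapl2, Il12rb1, Il22ra2, Il21r, Il2rg, Csf3r and Il22ra1) averaged 0.00169 to 0.202 FPKM.

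Cxcr4 was the one chemokine receptor with an appreciable level, and it rose. It encodes the receptor for CXCL12, which guides cell migration. Cxcr4 had 11.5, 14.2 and 9.75 FPKM with uric acid, against 7.00, 7.76 and 8.04 FPKM in untreated cells. Every uric acid library was above every untreated one, and uric acid library 2 was the highest. The means were 11.8 ± 2.26 FPKM with uric acid and 7.60 ± 0.540 FPKM in untreated cells (SD, n = 3 each), a 1.56-fold difference, with a log2 fold change of 0.64 ± 0.15 (adjusted p = 0.0331). It passed without uric acid library 3, and did not without uric acid library 1 (adjusted p = 0.0962) or 2 (0.0553) or without untreated library 1 (0.117), 2 (0.123) or 3 (0.0680). The table places Cxcr4 at chromosome 13, positions 45314933 to 45318878, on the minus strand. Cxcr5, a B-cell homing receptor, averaged 0.474 ± 0.0788 FPKM with uric acid and 0.727 ± 0.269 FPKM in untreated cells (SD, n = 3 each), and Ccr10, the receptor of Ccl27's product, averaged 0.402 ± 0.138 FPKM with uric acid and 0.341 ± 0.0646 FPKM in untreated cells (SD, n = 3 each). Neither passed (adjusted p = 0.410 and 0.802, no filter). Cxcr6, the receptor of CXCL16, had a value in untreated library 1 alone (0.0226 FPKM), and Ccr7 averaged 0.0781 FPKM.

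Of the 5 tested genes with a Tnfrsf symbol Tnfrsf12a fell and the others did not pass. Tnfrsf12a encodes Fn14, the receptor of TWEAK, an injury-induced receptor that activates NF-kappaB. It had 19.8, 19.1 and 17.4 FPKM with uric acid, against 28.2, 28.2 and 27.1 FPKM in untreated cells. The replicates of each group lay close together and far from the other group. The means of 18.8 ± 1.24 FPKM with uric acid and 27.8 ± 0.606 FPKM in untreated cells (SD, n = 3 each) put uric acid 32.5% lower. The log2 fold change was -0.57 ± 0.09 (adjusted p = 0.00769), and the adjusted p was 0.0546 without untreated library 2. The table places Tnfrsf12a at chromosome 10, positions 12995904 to 12997930, on the minus strand, and its neighbour Hcfc1r1, 446 bases away, had a log2 fold change of -0.12 (adjusted p = 0.422, no filter).

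Tnfrsf1a, the main TNF receptor of non-immune cells, had 26.3, 27.4 and 25.8 FPKM with uric acid, against 32.2, 28.1 and 27.9 FPKM in untreated cells. Its groups were just apart, and the log2 fold change was -0.15 ± 0.08 (adjusted p = 0.253). Tnfrsf21, the death receptor DR6, had 18.1, 19.9 and 16.1 FPKM with uric acid and 18.5, 17.2 and 14.3 FPKM in untreated cells, which overlap (log2 fold change 0.11 ± 0.11, adjusted p = 0.538). Tnfrsf9, the costimulatory receptor 4-1BB, and Tnfrsf11b, the decoy receptor osteoprotegerin, also overlapped, with log2 fold changes of 0.11 ± 0.21 (adjusted p = 0.783) and 0.12 ± 0.13 (adjusted p = 0.587). Tnfrsf11a (RANK) and Tnfrsf14 averaged 0.911 and 0.880 FPKM. The other 6 members (Tnfrsf25, Tnfrsf17, Tnfrsf4, Tnfrsf26, Tnfrsf13b and Tnfrsf19) were absent from at least 1 library and averaged 0.0161 to 0.113 FPKM.

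The rule also took in 3 genes that are neither ligand of the classical kind nor receptor. Il18bp, the secreted protein that binds and blocks interleukin 18, had 4.81, 4.62 and 2.26 FPKM with uric acid and 3.08, 2.77 and 4.78 FPKM in untreated cells. Il4i1, an enzyme that oxidises aromatic amino acids, had 1.57, 1.25 and 0.920 FPKM with uric acid and 0.906, 0.895 and 1.37 FPKM in untreated cells. Both overlapped, with log2 fold changes of 0.14 ± 0.32 (adjusted p = 0.827) and 0.24 ± 0.27 (adjusted p = 0.618), and neither had an unadjusted p under 0.05 or was called by DESeq2. Il1rn, the interleukin 1 receptor antagonist, had a value in uric acid library 2 alone (0.0316 FPKM).

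Genes that carry or answer cytokine signals were read from 6 lists, which hold 114 distinct tested genes, 6 of them in more than 1 list. The lists were chosen with earlier results of these data known. Of these genes, 14 rose and 1 fell, beside the background of 4.99% higher and 2.99% lower among all tested features. Without untreated library 2, 4 of the 114 rose, without uric acid library 1, 5 rose, and without untreated library 1, 6 rose. Relt, Nfkbia and Ikbkb missed the threshold in the fit with no filter (adjusted p = 0.0514 to 0.0619). Of 19 tested cytokines and receptors outside the symbol rule, Gdf15, Kit and Relt rose and Ngfr fell (median log2 fold change of the list 0.22). Gdf15, a stress-induced cytokine of the TGF-beta family, had 70.3, 93.8 and 45.3 FPKM with uric acid, against 19.7, 21.0 and 20.7 FPKM in untreated cells. All uric acid libraries were far above all untreated ones, and the log2 fold change was 1.77 ± 0.22 (adjusted p = 0.00235). Kit, the receptor of stem cell factor, averaged 83.7 ± 5.45 FPKM with uric acid and 54.7 ± 2.13 FPKM in untreated cells (SD, n = 3 each), with a log2 fold change of 0.61 ± 0.07 (adjusted p = 0.00159). Ngfr, the low-affinity neurotrophin receptor of the TNF receptor superfamily, averaged 5.27 ± 0.371 FPKM with uric acid and 10.3 ± 1.43 FPKM in untreated cells (SD, n = 3 each), with a log2 fold change of -0.97 ± 0.12 (adjusted p = 0.00235). Relt, another TNF receptor superfamily member, rose by 0.43 (adjusted p = 0.0359), a call that failed with uric acid library 1 (0.103) or 2 (0.0659) or untreated library 1 (0.118) or 2 (0.142) left out.

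**Figure D4:**
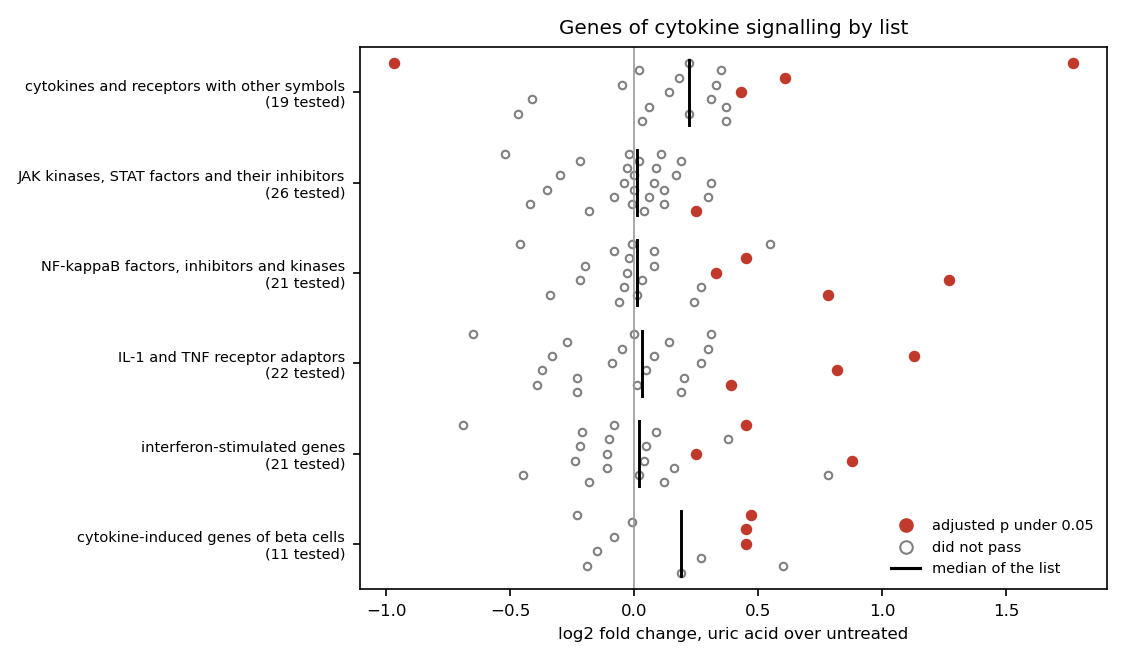
Log2 fold change, uric acid over untreated (horizontal axis), of the tested genes in 6 lists of cytokine signalling genes, from edgeR; each point is 1 gene, filled red where the adjusted p over all 12460 tested features was under 0.05, and the black bar is the median of the list. The medians lie between 0.01 and 0.22, and the points that passed lie to the right of 0 apart from Ngfr at -0.97.

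Of 21 tested NF-kappaB factors, inhibitors and kinases, 4 rose, with a median log2 fold change of 0.01 over the list. Bcl3, a nuclear coregulator of NF-kappaB dimers, had 2.78, 3.00 and 2.09 FPKM with uric acid, against 0.987, 1.22 and 1.03 FPKM in untreated cells, a log2 fold change of 1.27 ± 0.20 (adjusted p = 0.00785). Relb, a subunit of the non-canonical pathway, averaged 8.80 ± 1.24 FPKM with uric acid and 5.11 ± 0.564 FPKM in untreated cells (SD, n = 3 each; log2 fold change 0.78, edgeR adjusted p = 0.0144). Nfkbia, the inhibitor that NF-kappaB itself induces, had 0.45 (adjusted p = 0.0397), and the kinase Ikbkb had 0.33 (adjusted p = 0.0298). Bcl3 passed with each library left out in turn, and Relb, Nfkbia and Ikbkb each failed when uric acid library 1 or untreated library 1 or 2 was left out (adjusted p = 0.0614 to 0.157). Nfkbia and Ikbkb also failed without untreated library 3 (0.0734 and 0.0885), and Ikbkb without uric acid library 3 (0.0512). Of 22 tested adaptors of the IL-1 and TNF receptors, Irak3, Traf4 and Birc3 rose. Irak3, a pseudokinase that damps IL-1 receptor signalling, had 1.81, 2.84 and 1.80 FPKM with uric acid, against 0.996, 0.941 and 0.992 FPKM in untreated cells (log2 fold change 1.13 ± 0.21, adjusted p = 0.0150). With means of 2.15 FPKM with uric acid and 0.976 FPKM in untreated cells, Irak3 entered the tested genes only through its uric acid libraries. In edgeR with no filter its adjusted p was 0.0185. Traf4 rose by 0.39 (adjusted p = 0.0245) and Birc3, a ubiquitin ligase of TNF receptor complexes, by 0.82 (adjusted p = 0.0358). Without untreated library 1 or 2, Irak3 (adjusted p = 0.0611 and 0.0793), Traf4 (0.0866 and 0.104) and Birc3 (0.121 and 0.103) all missed the threshold. Traf4 also failed without uric acid library 1 (0.0845) and untreated library 3 (0.0505), and Birc3 without uric acid library 1 (0.0911) or 2 (0.0835), without untreated library 3 (0.0803) and in limma on log2(FPKM + 1) (0.0580).

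Most JAK and STAT genes and most interferon-stimulated genes did not pass. The 26 tested JAK kinases, STAT factors and inhibitors had a median log2 fold change of 0.01 (range -0.52 to 0.31). The 21 tested interferon-stimulated genes had a median of 0.02 (range -0.69 to 0.88), and Irf2 and Irf1 were among those that rose. Irf2, a transcription factor that competes with IRF1 at interferon elements, had 15.4, 18.0 and 16.7 FPKM with uric acid, against 8.77, 9.30 and 9.22 FPKM in untreated cells. The groups were far apart, and the log2 fold change was 0.88 ± 0.09 (adjusted p = 0.000875). Irf1, an activator induced by interferon gamma, had 20.7, 19.5 and 21.3 FPKM with uric acid, against 14.9, 15.0 and 15.0 FPKM in untreated cells (log2 fold change 0.45 ± 0.07, adjusted p = 0.00851), which failed when uric acid library 1 (0.0501) or untreated library 2 (0.0621) was left out. The list of genes known to be induced by inflammatory cytokines in beta cells held 24 genes, of which 21 were in the deposited table and only 11 were tested. Of these 11, Irf1, Bcl2l11 and Nfkbia rose, and the median log2 fold change was 0.19 (range -0.23 to 0.60). Bcl2l11, which encodes the death-promoting protein BIM, averaged 6.78 ± 0.306 FPKM with uric acid and 4.89 ± 0.124 FPKM in untreated cells (SD, n = 3 each), with a log2 fold change of 0.47 ± 0.08 (adjusted p = 0.00988), which failed when uric acid library 1 (0.0598) or untreated library 2 (0.0687) was left out. The members of the symbol rule on that list, Cxcl10, Cxcl11, Il1r1 and Il15 among those tested, did not pass.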

How the data were processed

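Polyadenylated RNA of 3 uric acid and 3 untreated INS-1E libraries was sequenced in paired reads of 150 bases after dUTP second-strand marking, per the labels' protocols. Tools listed in the submitters' processing notes are StringTie 1.3.4d, HISAT2 2.0.4, cutadapt 1.9, edgeR and DESeq2; their roles, the genome build and the strand of counting are not given in the sources used here. The deposited FPKM values are fragments scaled by the authors to transcript length and library total, per the file headers. The deposited count columns are estimated counts: among 2146 small-RNA values, FPKM times length gave a whole number of bases over 75 in 78.7% (tolerance 0.05; 10% by chance), and 99.6% equalled that value rounded up, so a full pair adds up to 4.

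Features averaging at least 1 FPKM were compared with edgeR 4.0.16 in R 4.3.3 (quasi-likelihood F test, TMM factors 0.992 to 1.009, no covariate) on the deposited counts, with Benjamini-Hochberg adjustment and a two-sided threshold of 0.05; all 19289 features were fitted again with no filter. The common biological coefficient of variation was 0.127, and an exact permutation test of 3 libraries against 3 could not go below p = 0.1. On simulated data of 12460 genes, 42% of changes of 0.5 (log2), 82% of 1, 100% of 2 and 100% of 4 were recovered, with 16 false calls; with no filter, over 19289 genes, the shares were 30, 58, 68 and 60%, with 23 false calls. Named genes are those past the threshold, Il23a, Il9r and Il18rap, the 3 most abundant tested in each role, and up to 4 per list; other family genes are named for completeness. The members and lists were chosen with earlier results of these data known. Alternatives were other scalings, DESeq2 1.42.0, limma 3.58.1 on log2(FPKM + 1) and log2(FPKM + 0.1), a robust spread, other filters, counts divided by 4, a replicate block and each library left out; for Il9r and Il18rap, counts divided by 4, DESeq2, limma on log2(FPKM + 0.1), the block and each library left out were run without the filter, a choice made after the data were seen. Same-numbered libraries correlated at 0.0684, -0.0492 and -0.19 in their deviations from the group means, beside -0.225 to 0.259 for differently numbered ones. These values cannot show whether same-numbered libraries were handled together, which the labels do not say. Every value column was matched to its library. Some genes of the lists are not reported here by name.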

Additional observations from a re-analysis of the deposited data

How the results depend on the processing

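Of 571 values of 35 named genes under the alternatives, 485 kept their direction and their side of the threshold, 78 lost the call, 0 gained one and 8 changed sign, all far from the threshold. The 35 were taken by a call, by name or by abundance, and other genes did gain a call. Il17re gained it in DESeq2, with the robust spread and without uric acid library 3. Among the list genes Tgfb2, Traf3 and Gbp5 were called only with a library left out. With 1 library left out, the log2 fold change ran from -0.04 to 0.42 for Il18bp (below 0 without uric acid library 1 or 2 or untreated library 2), from -0.17 to 0.07 for Il1r1 (above 0 without uric acid library 2), from -0.10 to 0.10 for Tnfsf10 (above 0 without uric acid library 1 or 2 or untreated library 3) and from -0.02 to 0.13 for Tnfsf12 (below 0 without untreated library 1). Leaving out 1 library gave 165 to 707 features called higher and 66 to 466 called lower over the whole table, 0 to 4 higher and 0 to 1 lower among the 38 cytokine and receptor genes, and 4 to 14 higher and 1 to 6 lower among the genes of the 6 lists. DESeq2 called 972 features higher and 793 lower, and 7 genes of the lists lower. In the labels the libraries share only a replicate number, and whether they were handled together is not known. With the replicate block and the filter, 223 features were called higher and 99 lower. Among the cytokine and receptor genes 1 was higher (Il23a) and 1 lower (Tnfrsf12a), and among the list genes 5 were higher and 1 lower. In that fit the edgeR adjusted p was 0.0782 for Cxcr4 and 0.0993 for Il6r. For Il9r and Il18rap, which the filter left out, it was 0.0554 and 0.0785 in the block fit with no filter. With the block and no filter no gene of the family passed. The cause of these differences was not tested. The 3 other scalings moved the median of all features by at most 0.012 (log2) and left the same 4 calls. Genes under 1 FPKM rest on few reads, and a difference that missed the threshold there may have been undetectable at this depth.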

Other observations

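Among the scarce genes, 13 of the 99 had counts with uric acid and none in untreated cells, summing to 1 to 32 estimated counts a gene. Another 6 had counts in untreated cells and none with uric acid, summing to 2 to 10. The shares of all features with counts in 1 group only were not computed, so 13 against 6 cannot be read as a lean of the family. The 2 of these 19 with an unadjusted p under 0.05 are named here after their values were seen. Il11ra1, the binding chain of the interleukin 11 receptor, had 9, 7 and 16 estimated counts in uric acid libraries 1, 2 and 3, against 0 in each untreated library. Il11ra1 spans positions 58151985 to 58159072 of chromosome 5, and Ccl27, on the other strand, spans 58159066 to 58163584, so only their ends overlap. Ccl27 had 75, 84 and 88 counts with uric acid and 86, 80 and 88 in untreated cells. Il1rapl2, an IL-1 receptor relative, had 3, 0 and 12 counts with uric acid, against 0 in each untreated library. Both had an unadjusted p under 0.05 in the edgeR fit with no filter, and neither passed after adjustment. The median coefficient of variation between replicates of the 38 tested cytokine and receptor genes was 14.2% with uric acid and 11.3% in untreated cells, beside 9.57% with uric acid and 7.60% in untreated cells over all tested features. The 2 sets were not matched for level: 27 of the 38 genes averaged 1 to 10 FPKM, beside 6052 of the 12460 tested features. Whether the wider spread goes with the lower level was not tested.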
